A study of Mus musculus with 26 samples.

Results

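The PAF1 complex (PAF1C) genes were followed in RNA-seq data of mouse choroid plexus (ChP), the epithelium in the brain ventricles that secretes the cerebrospinal fluid. The 6 members, taken by gene symbol out of 55416 listed genes, were Leo1, Paf1, Ctr9, Cdc73, Rtf1 and Wdr61. Leo1 was chosen on its measured rhythm in these Ctrl libraries, so its Ctrl values and their difference from SCNx are given as a description with no test. The other 5, called its partners here, were chosen as subunits of the same complex. The question was whether they follow Leo1 over the circadian day.

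Adult male C57Bl6J mice either underwent sham surgery (Ctrl, 12 mice) or had the suprachiasmatic nucleus ablated (SCNx, 12 mice), which removes the central pacemaker. All 24 were returned to a light-dark cycle of 12 h and 12 h for a week and then left in constant darkness, and 1 mouse per group was sampled at each 4 h step from CT0, the time of the omitted lights-on, to CT44. The KO group held 2 adult male mice of genotype FoxJ1-ERT2-Cre+/-; Bmal1fl/fl given a tamoxifen diet in the light-dark cycle, 1 killed at ZT7 (day) and 1 at ZT18 (night). The Foxj1 promoter drives this Cre in cells with motile cilia, so that the other cells of the ChP keep Bmal1, and no KO-line control without Cre was analysed here. ChP of the fourth ventricle was dissected fresh from Ctrl and SCNx mice, whereas KO tissue was laser-captured from frozen sections and sequenced with another kit.

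PAF1C travels with RNA polymerase II along the gene body. It helps the polymerase pass through chromatin, is needed for the ubiquitylation of histone H2B and the histone methylation that follows from it, and links elongation to 3′ end processing. Paf1 and Ctr9 form its scaffold, Leo1 binds Paf1, Cdc73 (parafibromin) docks on the polymerase and is a tumour suppressor, Rtf1 recruits the H2B ubiquitylation machinery and stimulates elongation, and Wdr61 (SKI8) is shared with the cytoplasmic SKI complex of mRNA decay.

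Ctrl and SCNx libraries held between 38751162 and 49527614 estimated counts and KO libraries 17425176 and 18059213, and a member rested on between 287 and 1836 counts in a KO library. CPM is the count scaled to library size and, in Ctrl and SCNx but not in KO, to composition. The markers of ChP epithelium, 8 genes with Ttr among them, summed to between 105096 and 165416 CPM in the 24 libraries, and to 85445 and 81179 CPM in the KO libraries at ZT7 and ZT18. Transcripts of other tissue or of blood were high in 5 of the 24 Ctrl and SCNx libraries, and those of astrocytes in the KO libraries too. The 5 hepatocyte markers reached 1784 CPM in Ctrl CT16 and 10111 CPM in SCNx CT0, against group medians of 0.52 and 1.72 CPM. The 4 astrocyte markers reached 641 CPM in Ctrl CT4 and 633 CPM in SCNx CT32, against medians of 27.7 and 30.2 CPM, and lay at 670 and 765 CPM in the KO libraries. The 3 blood markers reached 4954 CPM in SCNx CT44, against an SCNx median of 397 CPM, and without this library 0 partners passed a test below and the SCNx amplitude of Leo1 was 0.21, which did not pass. Ctrl CT16 and SCNx CT0 are called hepatocyte-rich and Ctrl CT4 and SCNx CT32 astrocyte-rich here. The latter label stands for brain markers as a set. Those of neurons and of oligodendrocytes were also highest there, with 230 and 135 CPM in Ctrl CT4 and 281 and 229 CPM in SCNx CT32. In bulk tissue, fewer cells of a type and less RNA per cell cannot be told apart. Every time point of a group is 1 mouse, so the error of a curve is the scatter of mice around it.

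Leo1 rose and fell about 2.3-fold over each day in Ctrl. It had 42.6 CPM at CT0, fell to 21.3 at CT8 and 20.4 at CT12, and returned to 41.4 at CT20 and 44.1 at CT24. The second day repeated this course, with 20.8 CPM at CT32, 19.5 at CT36 and 38.0 at CT44. Its lowest libraries were CT8 and CT12 on the first day and the same times, CT32 and CT36, on the second. Libraries 24 h apart differed by a median of 0.05 on the log2 scale and by at most 0.13, while the range within a day was 1.07 and 1.18. The fitted 24 h curve had a log2 amplitude, from mean to peak, of 0.60 ± 0.03 (SE, 12 mice), a ratio of peak to trough of 2.30 and a peak at 22.9 ± 0.2 h (SE). It held 97.4% of the variance of log2 CPM.

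**Figure D1:**
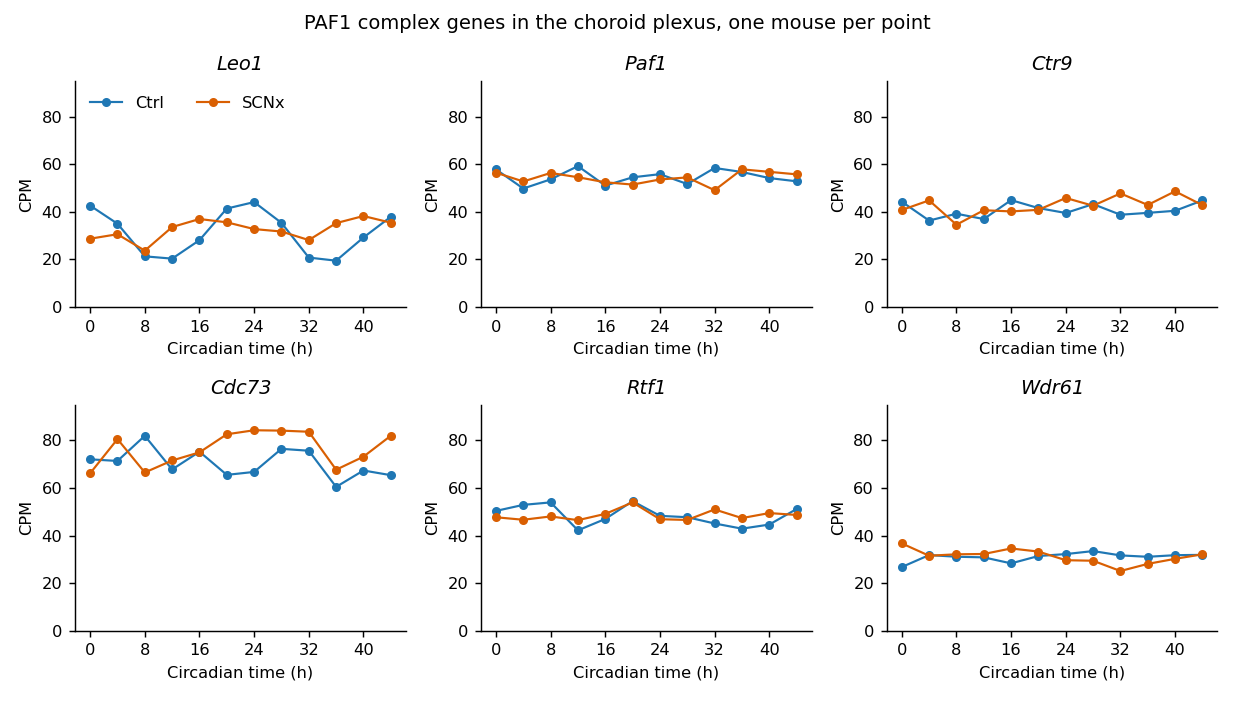
Level of each PAF1C gene in CPM (vertical axis, the same scale in all panels) against circadian time in hours, with 1 mouse per point, blue for Ctrl and orange for SCNx. Leo1 in Ctrl moves between 19.5 and 44.1 CPM in 2 like waves, while the partners stay near their means in both groups.

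Since the data turn on the time course of a single subunit, the 250 bases before the start sites of Leo1 and of its scaffold partner Paf1 are shown for comparison. They come from RefSeq with build GRCm38.p6, and 4 of the 6 members had such a window (Leo1, Paf1, Cdc73 and Rtf1). The Leo1 window lies at chr9:75441274-75441523 and that of Paf1 at chr7:28392746-28392995, both on the plus strand. Capitals mark matches to the motifs searched.
Leo1: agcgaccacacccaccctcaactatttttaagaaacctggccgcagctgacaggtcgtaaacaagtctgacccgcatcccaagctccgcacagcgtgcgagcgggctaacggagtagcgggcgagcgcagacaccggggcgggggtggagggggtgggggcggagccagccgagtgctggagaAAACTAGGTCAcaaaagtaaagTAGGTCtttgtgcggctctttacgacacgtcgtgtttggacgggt
Paf1: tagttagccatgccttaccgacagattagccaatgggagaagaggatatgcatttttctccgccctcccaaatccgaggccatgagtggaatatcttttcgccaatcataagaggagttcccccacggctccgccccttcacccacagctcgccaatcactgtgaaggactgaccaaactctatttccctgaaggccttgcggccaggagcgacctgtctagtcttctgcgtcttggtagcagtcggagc

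The first run of capitals in Leo1, 67 to 57 bases before the start, matches the RORE consensus, the element read by the ROR activators and the REV-ERB repressors of the clock. Of 32851 such windows of all genes, searched on both strands, 0.332% held a match. Its 3′ end holds the nuclear receptor half-site AGGTCA (14% of windows) and overlaps the shorter TAGGTC (6.66% of windows), which recurs 45 to 40 bases before the start. The windows of Paf1, Cdc73 and Rtf1 held none of these. The E-box CACGTG (6.02% of windows), CACGTT (3.85%) and the D-boxes TTATGTAA (0.819%) and TTACGTAA (0.113%) were in none of the 4 windows, and the heat shock core GAANNTTC (6.69%) was in that of Rtf1 alone. The list of motifs was settled after the Leo1 window had been read. A match describes letters, and binding was not measured.

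The partners did not show a wave of this size. Paf1 had between 49.8 and 59.2 CPM in Ctrl with a median of 54.4, highest at CT12. Ctr9 had between 36.4 and 45 CPM with a median of 40.0, highest at CT16. Cdc73 had between 60.5 and 81.9 CPM with a median of 69.6, highest at CT8. The highest libraries of these 3 genes fell at 3 different times. For Ctr9, CT44 (44.8 CPM) and CT0 (44.3 CPM), both near the peak of Leo1, were nearly as high as CT16. CT16 is the hepatocyte-rich Ctrl library, and Ctr9 and Paf1 were lowest in the astrocyte-rich one, CT4. The part of other tissue in these levels was not tested. Rtf1 had between 42.2 and 54.5 CPM with a median of 48, highest at CT20 and lowest at CT12. Wdr61 had between 26.8 and 33.5 CPM with a median of 31.6, highest at CT28. The coefficient of variation over the 12 Ctrl libraries was 29.7% for Leo1 and 5.55% to 8.72% for the partners.

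None of the 5 partners passed the test for a 24 h rhythm in Ctrl (edgeR's quasi-likelihood F test, Benjamini-Hochberg adjusted over 13697 genes), a test that called 10.7% of all genes. At an unadjusted p under 0.05, which 24.8% of all genes met, there was 1 partner, Rtf1. DESeq2, limma-trend and a rank test also called none. Rtf1 had a log2 amplitude of 0.11 ± 0.04 (SE) with a peak at 0.4 ± 1.5 h, a ratio of peak to trough of 1.16 and an adjusted p of 0.131. Without Ctrl CT8, its highest library but one, the amplitude of Rtf1 was 0.14 and the adjusted p fell to 0.0255, so that this call rests on 1 mouse. Ctr9 had an amplitude of 0.09 ± 0.04 with a peak at 20.4 ± 1.6 h (adjusted p = 0.451) and Cdc73 one of 0.09 ± 0.05 with a peak at 6.0 ± 1.9 h (adjusted p = 0.435). Paf1 (0.03 ± 0.03, adjusted p = 0.836) and Wdr61 (0.03 ± 0.04, adjusted p = 0.896) lay lowest, and their peak times, with SE of 4.74 and 4.64 h, were not determined.

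The data bound what the partners could do. The upper 95% limits of their Ctrl amplitudes ran from 0.11 for Paf1 to 0.21 for Rtf1, the latter a ratio of peak to trough of at most 1.33, and each lay below the 0.60 of Leo1. The median amplitude of the 5 partners was 0.09, beside 0.11 over all tested genes. A rhythm within these limits was not called.

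**Figure D2:**
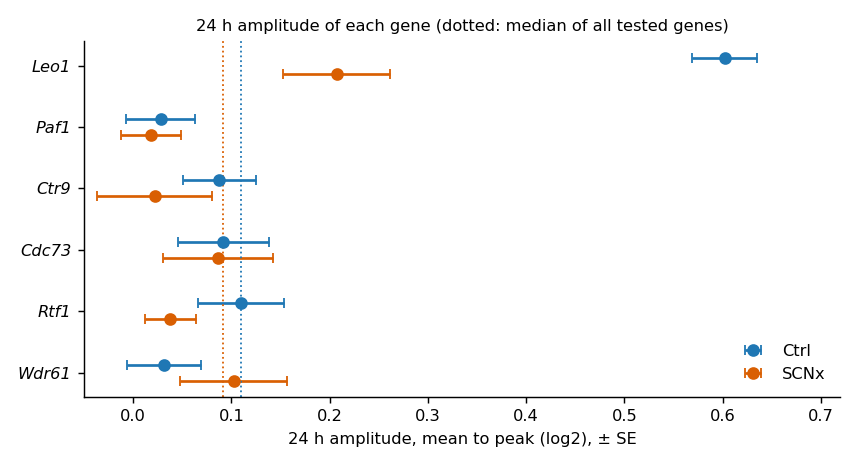
Log2 amplitude of the 24 h curve from mean to peak (horizontal axis) for each member, points with SE from the scatter of 12 mice around the curve, blue for Ctrl and orange for SCNx. Dotted lines mark the medians of all tested genes, 0.11 in Ctrl and 0.09 in SCNx, and Leo1 stands at 0.60 and 0.21 while all partners lie at or below 0.11.

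The ratio of Leo1 to the other members kept the wave of Leo1. The mean log2 CPM of the 5 partners stayed within a range of 0.13 over the Ctrl libraries. Leo1 minus that mean was -0.09 at CT24 and -0.16 at CT0, but -1.21 at CT8 and -1.2 at CT36. In SCNx it ran from -0.38 at CT40 to -0.95 at CT8, a range of 0.57 beside 1.12 in Ctrl. These are transcript levels, and whether the protein complex changes its Leo1 content was not measured.

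**Figure D3:**
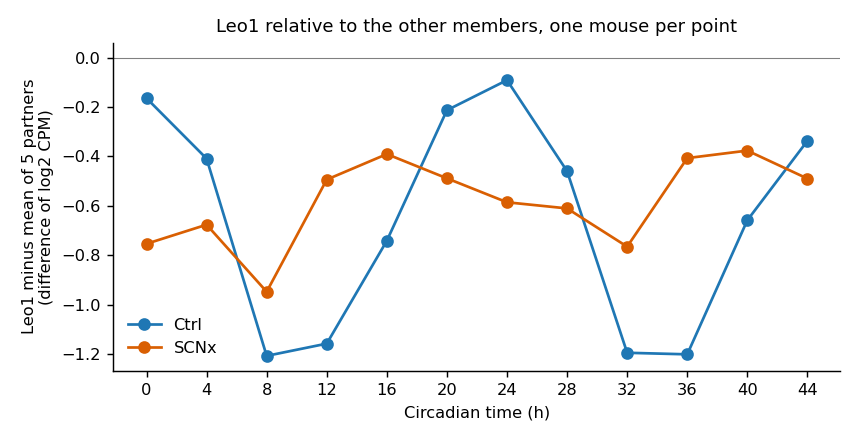
Difference between the log2 CPM of Leo1 and the mean log2 CPM of its 5 partners (vertical axis) against circadian time in hours, 1 mouse per point, for Ctrl (blue) and SCNx (orange). In Ctrl the difference swings between -1.21 and -0.09 on both days, and in SCNx it stays between -0.95 and -0.38.

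Per length of transcript the order of levels was the same in both groups. Counts were divided by the length of the principal GENCODE M21 transcript, so that the values, in CPM per kb, depend on that choice. Paf1 led in Ctrl with 27.3 ± 1.5 CPM per kb (SD over 12 libraries of different times), followed by Wdr61 with 24.1 ± 1.4, and their libraries overlapped. Leo1 came next with 14.4 ± 4.3 and a range from 8.95 to 20.2, which overlapped at its trough with Rtf1 (10.4 ± 0.9) and Ctr9 (9.5 ± 0.7) and stayed under every Wdr61 library. Cdc73 was lowest with 6.09 ± 0.52 and did not overlap with Ctr9, and its transcript, 11586 bases long, was the longest of the 6. In its upper range Leo1 thus came near the level of Wdr61 and in its trough near that of Rtf1 and Ctr9.

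After the SCN lesion the fitted Leo1 curve was flatter and peaked earlier, as a description. Leo1 ranged from 23.7 to 38.3 CPM in SCNx with a median of 33.2, all within its Ctrl range. Its lowest library was CT8 on the first day (23.7 CPM) and CT32 on the second (28.2), and its highest CT16 (37.0) and CT40 (38.3). Libraries 24 h apart differed by a median of 0.06 and at most 0.25 on the log2 scale, within daily ranges of 0.64 and 0.44. The log2 amplitude was 0.21 ± 0.05 (SE) and the peak 17.5 ± 1.0 h, beside 0.60 ± 0.03 and 22.9 ± 0.2 h in Ctrl. The curve of the difference between the groups had an amplitude of 0.60. Neither that difference nor the shift of the peak was tested, since Leo1 was chosen on its Ctrl curve. With 1 mouse per time, a lower amplitude in each mouse and mice at different phases cannot be told apart.

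The SCNx curve came from libraries the choice of Leo1 had not touched, but the joint fits estimate the spread from both groups together. The scatter of Leo1 around its Ctrl curve, which bore on its choice, thus enters their p-values. That scatter (residual SD of log2 CPM) was 0.08 in Ctrl and 0.13 in SCNx. Only a separate fit of SCNx and the rank test left it out. Leo1 had p = 0.000564 and an adjusted p of 0.137 (edgeR), and ranked 54th of 13697 genes by p. No member and 0% of all genes passed the threshold in this test, 14.8% of all genes had an unadjusted p under 0.05, and among the 6 members Leo1 alone did. DESeq2's likelihood ratio test gave Leo1 an adjusted p of 0.0150 and called 432 genes. EdgeR with no minimum level gave 0.0206, in a setting that called 1384 genes in SCNx, more than its 1116 in Ctrl. Limma-trend (0.377), a separate fit of SCNx (0.468) and the rank test (0.521) did not call it. The amplitude was 0.21 without the hepatocyte-rich libraries and 0.20 without the astrocyte-rich ones, and between 0.16 and 0.24 with each of the 24 libraries left out in turn. A weak rhythm of Leo1 in SCNx was thus called by some joint fits, and by neither test that left the Ctrl scatter out.

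The partners in SCNx showed no curve that passed. Paf1 ranged from 49.1 to 57.9 CPM, Ctr9 from 34.6 to 48.7, Cdc73 from 66.2 to 84.3, Rtf1 from 46.5 to 53.9 and Wdr61 from 25.1 to 36.7. Their amplitudes lay between 0.02 and 0.10 with adjusted p from 0.429 for Wdr61 to 0.947 for Ctr9 (edgeR), and their upper 95% limits between 0.09 and 0.23. Wdr61 had an amplitude of 0.10 ± 0.05 and Cdc73 one of 0.09 ± 0.06. The extremes of Wdr61 were SCNx CT0 and SCNx CT32, the hepatocyte-rich and the astrocyte-rich library. Without the hepatocyte-rich pair of libraries its amplitude was 0.08 and without the astrocyte-rich pair 0.06. The amplitude of Cdc73 rose to 0.14 without the hepatocyte-rich pair, or without SCNx CT0 alone, and that of Ctr9 from 0.02 to 0.07 without the astrocyte-rich pair, and neither passed. Paf1 was likewise lowest in SCNx CT32 and Cdc73 lowest in SCNx CT0. The part of these transcripts of other tissue in the levels of Wdr61, Paf1 and Cdc73 was not tested further.

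No difference of the rhythm between the groups passed for the 5 partners (0 passed, 0 at an unadjusted p under 0.05, edgeR), a comparison that called 2.12% of all genes and 15.1% without adjustment. Adjusted p ran from 0.400 for Rtf1 to 0.939 for Paf1, and DESeq2 and limma-trend called none either. A linear trend over the 2 days, added to the model, moved Wdr61 past the threshold (adjusted p = 0.0459, amplitude of the difference 0.20 in place of 0.13). Wdr61 fell over the SCNx series, by a mean of 0.20 on the log2 scale from the first day to the second, and rose by a mean of 0.09 in Ctrl.

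Mean levels were nearly equal in Ctrl and SCNx. No member passed the test of SCNx against Ctrl (edgeR), which called 0% of all genes and 9.37% at an unadjusted p under 0.05, while DESeq2 called 7 genes and no member. The mean of Leo1 was 31.3 ± 9.3 CPM in Ctrl mice and 32.6 ± 4.2 CPM after the lesion (SD over 12 mice of different times each, so that its daily wave is part of the spread), a log2 fold change of 0.06 with a 95% interval from -0.22 to 0.33. Leaving out 1 library moved this value between 0.01 (without Ctrl CT36) and 0.11 (without Ctrl CT24), never past the threshold. Cdc73 had means of 70.5 ± 6.0 CPM in Ctrl and 76.4 ± 7.2 CPM in SCNx mice, a log2 fold change of 0.12 ± 0.05 (SE, p = 0.0339, adjusted p = 0.495, edgeR). The 95% intervals of the other 4 partners lay within -0.09 and 0.16.

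To ask whether partners follow Leo1 from mouse to mouse, levels were correlated over the 12 SCNx libraries, 5 correlations of log2 CPM with two-sided p from 100000 permutations. Ctr9 came nearest with Pearson's r = 0.45 and Spearman's rho = 0.13 (permutation p = 0.147 and 0.704, adjusted over the 5 correlations 0.734 and 0.800). Without the 2 libraries farthest from the median of Leo1, its r was 0.19, and without SCNx CT0 and SCNx CT32 it was 0.66 (adjusted permutation p = 0.297). The other 4 had r between 0.07 and 0.24 with adjusted permutation p of 0.825, and Rtf1, at 0.18, had r = 0.51 without the 2 libraries farthest from the median of Leo1. In Ctrl, where the choice of Leo1 bears on the values, r was 0.58 for Rtf1, 0.46 for Ctr9, -0.06 for Wdr61, -0.13 for Cdc73 and -0.34 for Paf1, as a description. No partner followed Leo1 detectably at this number of mice.

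Leo1 had a time course like that of Arntl, and its SCNx levels correlated with those of some clock genes. In Ctrl its peak at 22.9 h lay within its SE of that of Arntl (Bmal1, the activator of the clock's positive limb) at 22.9 ± 0.1 h, and away from those of Nr1d1 (REV-ERBα) at 7.6 h, Dbp at 10.2 h and Per2 at 14.8 h. Arntl, with an amplitude of 2.23, swung far more than Leo1. In SCNx Arntl peaked at 17.9 ± 2.2 h, beside 17.5 h for Leo1. Over the 12 SCNx libraries Leo1 and Arntl had r = 0.81 and rho = 0.77 (permutation p = 0.00318 and 0.0051, adjusted over 4 clock genes 0.00636 and 0.0204), and r = 0.74 without the 2 libraries farthest from the median of Leo1. For Dbp, a clock output, r was -0.81 and rho -0.69 (permutation p = 0.00318 and 0.0157, adjusted 0.00636 and 0.0209), and r = -0.79 without the 2 libraries. Per2, a repressor of the clock, had r = -0.62 (permutation p = 0.0343, adjusted 0.0457) and rho = -0.70 (0.0139 and 0.0209), with r = -0.52 without them. Nr1d1 had r = -0.49 (permutation p = 0.104, adjusted 0.104) and rho = -0.44 (0.155 and 0.155), with r = -0.62 without them. This family of 4 was chosen after the values had been seen. The permutations treat libraries of a time series as exchangeable, so a time course shared by 2 genes is part of these r and p. Without SCNx CT0 and SCNx CT32, r was 0.92 for Arntl and -0.93 for Dbp, Nr1d1 passed (r = -0.76, adjusted permutation p = 0.0172) and Per2 did not (-0.60, 0.0855).

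The 8 genes most like Leo1 over the 12 Ctrl libraries, by Pearson's r of log2 CPM among all tested genes, were Rapgef5 (r = 0.99), Arntl (0.99), Gm33027 (0.96), Ier5 (0.96), Elmo2 (0.95), Syt17 (0.95), Sphk2 (0.95) and Gtf2f2 (0.95). Rapgef5 is an exchange factor for Rap GTPases, Ier5 an immediate early gene, Elmo2 a partner of DOCK proteins in cell migration, Sphk2 a sphingosine kinase and Gtf2f2 a subunit of the general transcription factor TFIIF. Their Ctrl peaks ran from 22 h for Sphk2 to 23.7 h for Syt17, and their amplitudes from 0.30 for Elmo2 to 2.23 for Arntl. Over the 12 SCNx libraries, which did not choose them, the r with Leo1 was 0.91 for Ier5, 0.90 for Elmo2, 0.76 for Gtf2f2, 0.66 for Rapgef5 and 0.37 for Gm33027. Of the 6 with a RefSeq promoter window, 0 held the RORE consensus and 2 the half-site AGGTCA in the 250 bases before a start. Arntl, among these 6, held neither. Bases outside these windows were not searched, so the 0 does not mean that these genes lack the element. No PAF1C partner was among the 8.

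Few genes of the wider elongation machinery passed the rhythm test. A list of 61 genes was drawn up with earlier results of these data known, and 60 were measured above the minimum level, all but Eaf2. In Ctrl 3 of the 60 (5%) passed the rhythm test, against the 10.7% of all genes, and 14 (23.3%) had an unadjusted p under 0.05, against 24.8%. Aff1, a scaffold protein of the super elongation complex, had an amplitude of 0.26 with a peak at 12.1 h (adjusted p = 0.0244). Hexim1, the inhibitor of the elongation kinase P-TEFb, had one of 0.19 at 20.6 h (adjusted p = 0.0326), and Cxxc1, the CpG-binding subunit of the SET1 methyltransferases, one of 0.14 at 20.3 h (adjusted p = 0.0317). All 3 amplitudes were under that of Leo1, 0.60. Aff4, listed with Aff1 in the super elongation complex, had a mean of 263.7 CPM in Ctrl beside 13.6 CPM for Aff1. Its amplitude of 0.05 did not pass (adjusted p = 0.818, edgeR). The median amplitude of the list was 0.07, beside 0.11 over all tested genes.

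By role, 0 of 6 genes of the pausing factors DSIF and NELF passed in Ctrl, 1 of 7 of P-TEFb and its regulators, 1 of 7 of the super elongation complex, 0 of 11 other elongation factors, 1 of 15 of H2B ubiquitylation and histone methylation, 0 of 2 of the SKI complex and 0 of 12 RNA polymerase II subunits. The count of 3 was unstable. It was 6 with DESeq2, 8 with a separate fit of Ctrl, 1 with the rank test, 5 without the hepatocyte-rich and 7 without the astrocyte-rich libraries. It was 1 without Ctrl CT8 or Ctrl CT36, 0 without Ctrl CT44, 5 without Ctrl CT16 and 6 without SCNx CT32. Over all 13697 genes the main fit called 1459 in Ctrl, DESeq2 2053, the separate fit 1997 and the rank test 960. Such totals were not counted for left-out libraries. In SCNx 0 of the 60 passed (edgeR, DESeq2, limma-trend and the rank test), where edgeR called 0% of all genes and DESeq2 432 genes. An unadjusted p under 0.05 was met by 3 (5%), against 14.8% of all genes (edgeR). For the difference of the rhythm 0 passed, against 2.12% of all genes, and 2 (3.33%) had such a p, against 15.1%. For the level 0 passed, against 0% of all genes, and 3 (5%) had such a p, against 9.37%. Of these 3, 2 were higher and 1 lower in SCNx.

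**Figure D4:**
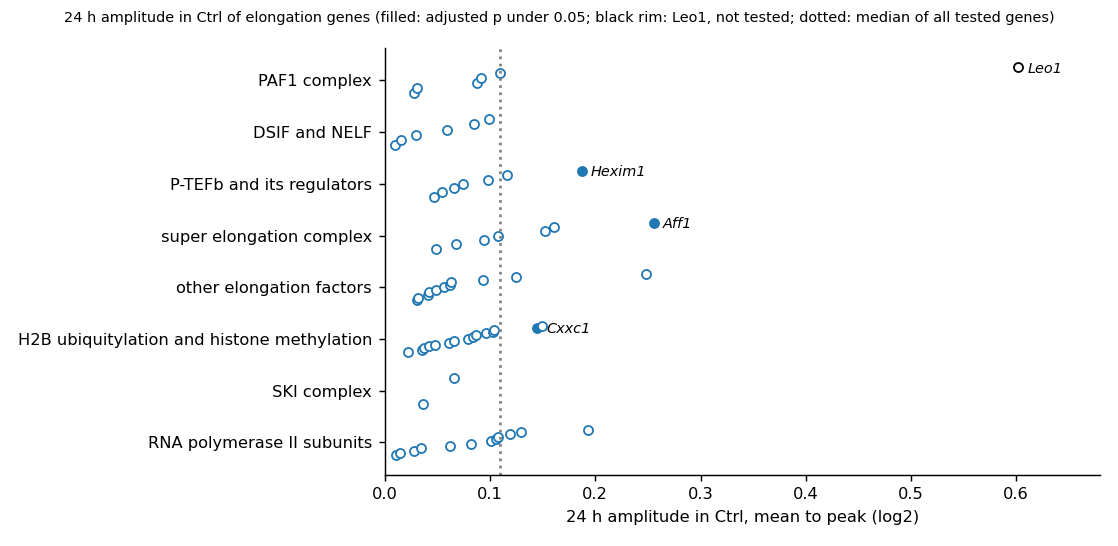
Log2 amplitude of the 24 h curve in Ctrl (horizontal axis) for the PAF1C genes and 60 other elongation genes by role, 1 point per gene. Filled points passed the rhythm test, Leo1 (black rim) was not tested, the dotted line is the median of all tested genes (0.11), and Leo1 at 0.60 lies far above the highest listed gene, Aff1 at 0.26.

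The KO mice gave 1 value per time and no test. The targeted gene Arntl had 10.6 CPM at ZT7 and 9.36 CPM at ZT18, within the 2.01 to 39.4 CPM of Ctrl. The excised allele is still transcribed and other ChP cells keep the gene, so this count checks neither label. Leo1 had 44.8 CPM at ZT7 (781 counts) and 53.0 CPM at ZT18 (957 counts), a log2 difference of night minus day of 0.24 with an exact 95% interval of 0.10 to 0.38 that covers counting error only. Between the nearest times in darkness, CT16 or CT20 against CT8 and the same a day later, the difference of Leo1 ran from 0.40 to 0.96 in Ctrl and from 0.33 to 0.64 in SCNx. The KO value lay below all 8 of these, and its counting interval reached the lowest of SCNx. With TMM scaling of the KO pair each difference falls by 0.14, to 0.10 for Leo1.

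Leo1 did not stand out among the members in KO. Paf1 went from 62 to 77.5 CPM (night minus day 0.32, interval 0.21 to 0.44) and Rtf1 from 46.8 to 57.7 CPM (0.30, 0.17 to 0.44), with intervals that overlap that of Leo1. Ctr9 had 43.6 and 43.3 CPM, Cdc73 105.4 and 100.2 CPM and Wdr61 17.8 and 15.9 CPM, with intervals that include 0. Dbp was higher at night in KO by 0.35 and Nr1d1 by 0.80, whereas all 4 differences in Ctrl were negative for both genes. In SCNx the differences were of mixed sign, from -2.34 to 0.17 for Dbp and from -1.14 to 0.46 for Nr1d1. Per2 was higher at night in KO by 0.49 and in Ctrl by 0.48 to 0.94, while its differences in SCNx ran from -1.24 to -0.07. Genotype, light, kit, tissue capture and the shares of epithelial and astrocyte transcripts differ together between KO and the other groups and cannot be told apart.

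**Figure D5:**
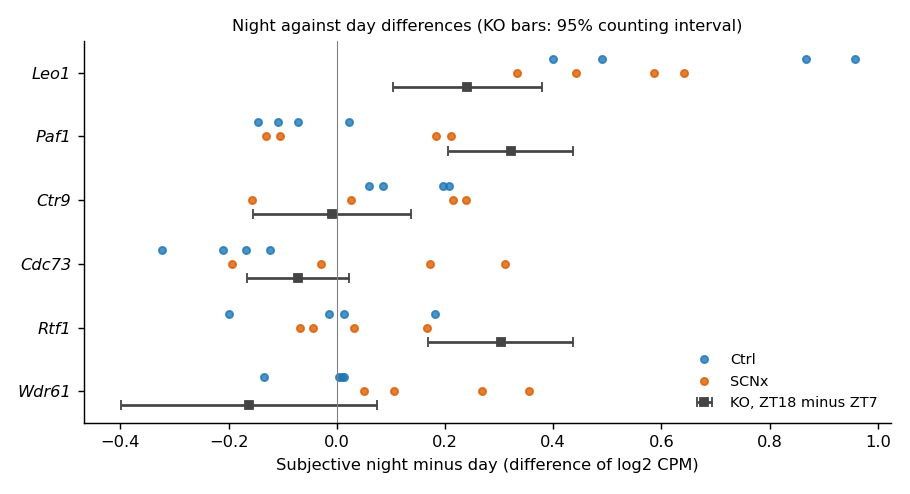
Difference in log2 CPM between night and day (horizontal axis) for each member. Blue and orange points are the 4 pairs of Ctrl and SCNx libraries at CT16 or CT20 against CT8 and 24 h later, and squares the KO pair, ZT18 minus ZT7, with 95% counting intervals. Leo1 is positive in all groups, with Ctrl from 0.40 to 0.96 and KO at 0.24, and in Ctrl all 4 pairs are positive for Ctr9, all 4 negative for Cdc73 and of mixed sign for the other partners.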

How the data were processed

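Libraries of Ctrl and SCNx (KAPA mRNA HyperPrep) and KO (Smarter Stranded totRNA-seq low input) were sequenced as single-end reads. The authors mapped them to GRCm39 with nf-core/rnaseq and deposited estimated counts per gene from Salmon 1.9.0, without normalization. Every deposited column was matched to a sample by its label. Counts were rounded and scaled with TMM in edgeR 4.0.16 (R 4.3.3). Tests covered the genes whose mean CPM reached 1 in both groups. One negative binomial model held a mean, cosine and sine of 24 h per group, and a second the group means alone, with quasi-likelihood F tests and Benjamini-Hochberg adjustment at 0.05. Amplitudes come from the fit, their SE from the scatter of log2 CPM around the curve, and the SE of a fold change from the F statistic. KO values are CPM by library total. The alternatives were DESeq2 1.42.0, limma-trend 3.58.1, DESeq2 size factors, other minimum levels, a linear trend, separate fits, a rank test of the eJTK type and left-out libraries. The fits were tested on simulated data. Figures used Python 3.11.15 and matplotlib 3.10.9.

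The members and lists were chosen with earlier results of these data known. Genes named besides the members are the called elongation genes with Aff4 and Eaf2, the 8 most like Leo1 and the 2 most like each partner, neighbours of Leo1, genes overlapping a member, and 4 clock genes. Each p-value measures the spread between single mice. Where reads of overlapping genes were shared, the assignment is that of Salmon.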

Additional observations from a re-analysis of the deposited data

How the results depend on the processing

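The partner calls changed in few settings. For the rhythm in Ctrl 0 partners passed in all settings but 1, with a range of 0 to 1 over left-out libraries (1 without Ctrl CT8). For the rhythm in SCNx 0 members passed but for 1, Leo1, with DESeq2 and with no minimum level, settings that called 432 and 1384 genes there. For its difference 0 partners passed but for 1, Wdr61, under a linear trend, where 1 elongation gene passed too. Elongation genes called in Ctrl numbered 3, with 6 by DESeq2, 0 with no minimum level, 8 in a separate fit, 1 by the rank test, 5 without the hepatocyte-rich and 7 without the astrocyte-rich libraries, and 0 to 6 over left-out libraries. Over all genes the main fit called 1459 in Ctrl, DESeq2 2053, the separate fit 1997 and the rank test 960. With no minimum level, where more genes were tested, 1116 were called in Ctrl. The level comparison called 0 members in each setting run. The small log2 fold changes of Rtf1 (0.003) and Wdr61 (0.011) turned negative in some settings, to -0.00922 and -0.000389 with no minimum level, to -0.024 for Wdr61 without the hepatocyte-rich libraries, and over left-out libraries they ran from -0.016 to 0.018 and from -0.013 to 0.033. Without SCNx CT0 and SCNx CT32 the correlation with Leo1 turned to -0.12 for Paf1 and -0.00332 for Wdr61, neither past the threshold. The cause of these changes was not tested. With circadian time as a block, which pairs the groups by time alone, 0 members passed for the level and the log2 fold change of Leo1 was 0.11 in place of 0.06, as it was with limma-trend and with means from the cosine fit. With 1 mouse per time, partner amplitudes up to 0.21 in Ctrl and 0.23 in SCNx lay within the 95% limits.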

Other observations

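Of the genes beside Leo1, 2 reached the level for testing and neither passed the rhythm test in Ctrl. Its nearest listed neighbours, 4933433G15Rik and Gm7972, had means of 0.22 and 0.23 CPM in Ctrl, under the minimum for testing. LOC115487244, which overlaps Leo1 in the RefSeq gene table, was not analysed here. The nearest named protein-coding genes were Mapk6, an atypical MAP kinase, and Tmod3, a tropomodulin that caps actin filaments. Mapk6 had 132.0 CPM in Ctrl and an amplitude of 0.10 with a peak at 0.3 h (adjusted p = 0.0856, edgeR), and Tmod3 had 27.9 CPM and 0.04 (adjusted p = 0.851). B3galt2, a galactosyltransferase gene that lies within Cdc73, had 4.60 CPM and passed the rhythm test in Ctrl with an amplitude of 0.42 and a peak at 9.4 h (adjusted p = 0.0298), while Cdc73 itself did not pass. Both genes overlap in the RefSeq gene table, so the value of B3galt2 is uncertain where reads were shared. Dnaja4, a heat shock protein gene beside Wdr61 that was named after its values had been seen, passed in Ctrl with an amplitude of 0.23 and a peak at 20.6 h (adjusted p = 0.00284).

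Each partner had its own closest genes over the 12 Ctrl libraries, and none was a PAF1C member. They were Khsrp (r = 0.95) and Adrm1 (0.93) for Paf1, Gm14399 (0.93) and Amacr (0.90) for Ctr9, Rev3l (0.97) and Ecpas (0.97) for Cdc73, Gm14443 (0.87) and 4833413G10Rik (0.87) for Rtf1, and Fundc2 (0.95) and Exosc4 (0.91) for Wdr61. Over the SCNx libraries, which did not choose these pairs, r was 0.96 for Cdc73 with Rev3l, the catalytic subunit of DNA polymerase zeta, 0.81 for Cdc73 with Ecpas and 0.87 for Paf1 with Adrm1, a ubiquitin receptor of the proteasome. It was -0.29 for Ctr9 with Amacr. These correlations describe libraries that share depth and composition, over 12 mice each.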
